A study of Mus musculus with 6 samples.

Results

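The comparison set the foreguts of 2 embryos with 19 somites against those of 4 embryos with 21 to 24 somites, so that all 6 libraries of the series entered it. Each library came from the dissected foregut of 1 mouse embryo at embryonic day 9.5 on a mixed strain background. The 19-somite group held 1 Gli2+/-;Gli3+/- control (control 1) and 1 Gli2-/-;Gli3-/- mutant (mutant 1). The 21 to 24-somite group held control 3 and mutant 3, with 21 somites each, mutant 2, with 22 somites, and control 2, with 24 somites. All embryos therefore carried at least 1 mutant allele of Gli2 and of Gli3, which encode transcriptional effectors of Hedgehog signaling, and there was no wild-type group. Each stage held both genotypes, and genotype was a term in the fit. The younger group was the same as the libraries numbered 1, and the titles of these embryos, alone among the 6, share the number before the point, which may mark a shared litter. The methods speak both of littermate controls and of control and mutant embryos from separate litters, and no label names a litter. Stage, litter and whatever else the number may mark therefore cannot be told apart. Xist, the RNA that coats the inactive X chromosome, stood at 523 and 568 TPM in control 2 and mutant 2 and at no more than 0.75 TPM in the others, so both embryos with 22 or more somites were female and those with 19 or 21 somites were male. Below, the values of a gene are given for control 1 and mutant 1 at 19 somites and then for control 3, mutant 3, mutant 2 and control 2, in that order, at 21 to 24 somites.

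Somites are blocks of paraxial mesoderm that bud off in pairs at a steady pace, and their number is the usual clock for staging mouse embryos within a day of gestation. At the stages compared here the foregut is a tube of endoderm wrapped in splanchnic mesoderm, in which the buds of liver, lung and pancreas are being set aside under Hedgehog, Wnt, FGF, BMP and retinoic acid signals. The heart lies directly below it, and primitive red cells from the yolk sac already circulate through its vessels.

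Expression was measured as TPM, the length-corrected share of each transcript in its library, scaled to the same total. The number of reads behind a value is unknown. Values above 0 were listed for 18646 to 19282 of 22564 features in a library, and the 14606 genes that averaged 1 TPM or more were tested. Features named by a database accession took 34.5% and 23.4% of the TPM in control 1 and mutant 1 and 34.5% to 43.8% in the older foreguts. The main axis of variance among the libraries, with 45.3% of the total, ran from the younger to the older foreguts. Mutant 1 and control 1 had scores of -58.1 and -50.5 on it, and the 4 older libraries lay between 19.7 and 39.9. The second axis held 19.4% and placed mutant 2 and control 2 at opposite ends, 41.7 and -31.9.

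**Figure D1:**
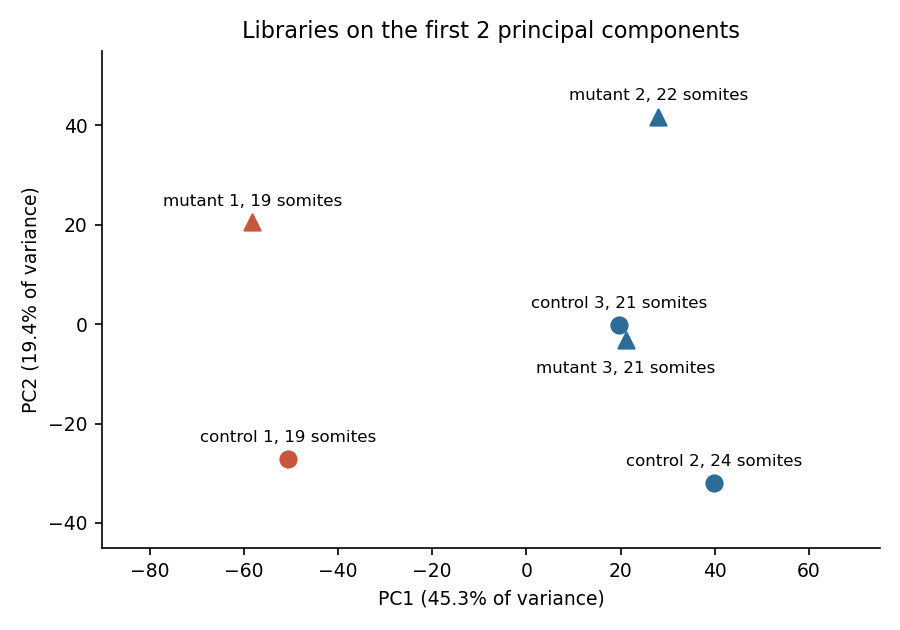
Scores of the 6 libraries on the first 2 principal components of log2(TPM + 1) over the 14606 tested genes, with circles for controls, triangles for mutants, red for 19 somites and blue for 21 to 24 somites. Both 19-somite libraries lie at -58.1 and -50.5 on PC1, and the others at 19.7 to 39.9.

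With genotype in the fit, 292 genes were higher and 1083 lower in the older foreguts, 2.00% and 7.41% of the 14606 tested. Calls were made in limma at a Benjamini-Hochberg adjusted p no greater than 0.1, together with a log2 ratio beyond 1 in either direction. The log2 ratio, also called log2 fold change, is the mean of log2(TPM + 1) at 21 to 24 somites minus that at 19 somites, fitted beside genotype, and it understates the change of low genes. The values of the younger and older foreguts did not overlap for 2983 genes that were higher (20.4%) and 3374 that were lower (23.1%) in the older group. The median over all genes tested was -0.02. Of the calls, 21.2% were higher, a share that rose to 34.7% with quantile normalization and to 45.4% when TPM was rescaled without the accession-named features, which moved the median of all genes to 0.14. The calls needed both younger libraries. Without control 1 only 2 genes were higher and 22 lower, and without mutant 1 only 1 was higher and 10 lower, in fits that leave 1 younger library and assume that it varies like the rest. An exact permutation of stage within genotype has 9 arrangements and cannot go below p = 0.111 for a single gene. As the 19-somite group may be a single litter, p-values measure the spread between these 6 embryos alone.

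Genes that rose included some products of mesenchyme and of developing red cells, though few members of the lists for these cells, given below, were called. Cdh11 encodes a cadherin of mesenchymal cells (chromosome 8, 102632095 to 102785642, mm10) and had 59.3 and 89.9 TPM at 19 somites and 245, 211, 283 and 239 TPM at 21 to 24 somites. All 4 older libraries exceeded both younger ones by more than either group varied within itself, with a log2 ratio of 1.72 ± 0.19 (SE, limma adjusted p = 0.0068). Wnt5a, a Wnt ligand that directs the outgrowth of gut tube and lung mesenchyme (chromosome 14, 28504750 to 28527448), had 13.8 and 25.1 TPM at 19 somites and 51.6, 49.1, 67.6 and 43.2 TPM at 21 to 24 somites, with a log2 ratio of 1.44 ± 0.21 (SE, limma adjusted p = 0.011). In both, mutant 2 was the highest library.

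Other coding genes with the largest rises were lower in level. Rhag, a Rh-associated glycoprotein of the red cell membrane, had 2.48 and 2.26 TPM at 19 somites and 19.6, 11.5, 19.3 and 5.95 TPM at 21 to 24 somites and a log2 ratio of 2.03 ± 0.44 (SE, limma adjusted p = 0.026). Its spread among the older foreguts was wide, from 5.95 TPM in control 2 to 19.6 TPM in control 3. Mtus2, a microtubule-associated protein, had 2.53 and 3.15 TPM at 19 somites and 12.3, 11.4, 18.4 and 10.6 TPM at 21 to 24 somites, with a log2 ratio of 1.86 ± 0.24 (SE, limma adjusted p = 0.0092). Ly96, the partner of a Toll-like receptor, had 3.29 and 4.19 TPM at 19 somites and 15.96, 13.9, 17.3 and 13.2 TPM at 21 to 24 somites, with a log2 ratio of 1.76 ± 0.20 (SE, limma adjusted p = 0.0073). Ly96 varied little within each stage, and Mtus2 was highest in mutant 2. St6gal2, a sialyltransferase, had 6.14 and 1.66 TPM at 19 somites and 14.7, 10.9, 9.07 and 16.1 TPM at 21 to 24 somites, with a log2 ratio of 1.62 ± 0.25 (SE, limma adjusted p = 0.013). Samsn1, an adaptor protein of blood cells, had 1.79 and 6.15 TPM at 19 somites and 16.7, 14.7, 13.3 and 10.4 TPM at 21 to 24 somites, with a log2 ratio of 1.71 ± 0.33 (SE, limma adjusted p = 0.02).

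Fgf18, a ligand of the FGF family, was low at both stages, with 0.2 and 0.66 TPM at 19 somites and 2.12, 6.67, 4.26 and 2.12 TPM at 21 to 24 somites. Its log2 ratio of 1.66 ± 0.31 (SE, limma adjusted p = 0.018) makes it the only growth factor among the 12 coding genes with the largest rises. Dlx5, a homeobox factor of the pharyngeal arches, had 0.39 and 0.69 TPM at 19 somites and 1.69, 3.89, 17.6 and 1.88 TPM at 21 to 24 somites, so that mutant 2 stood far above the other older embryos (limma adjusted p = 0.077). Gpm6b, a membrane protein of neural cells, had 0.5 and 0.42 TPM at 19 somites and 1.71, 4.35, 7.89 and 2.18 TPM at 21 to 24 somites, again highest in mutant 2. 5031410I06Rik had 0.57 and 0.34 TPM at 19 somites and 3.4, 3.88, 3.17 and 5.33 TPM at 21 to 24 somites. The last 2 of the 12 were Rsc1a1 and Gm21975, whose exons are shared with neighbouring genes. All 1749 exonic bases of Rsc1a1 lie in exons of Ddi2, and 1831 of the 3944 bases of Gm21975 lie in Evi2b, on the same strand in each case, so their values cannot be assigned to these genes alone.

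**Figure D2:**
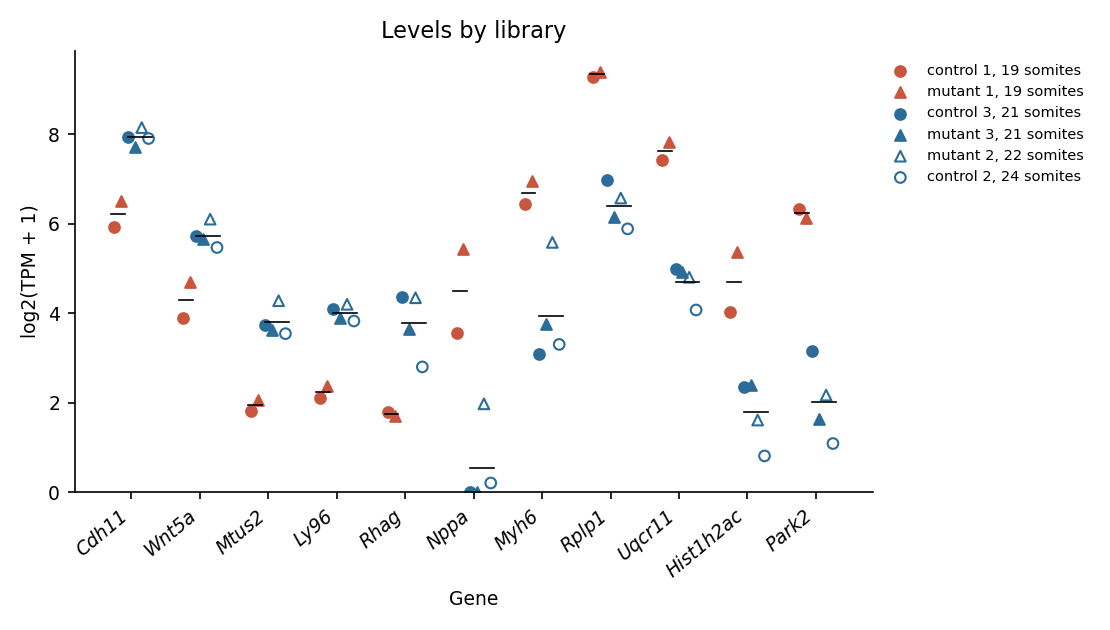
Levels of 11 genes in each library as log2(TPM + 1), with red for 19 somites, filled blue for 21, open blue for 22 and 24, circles for controls, triangles for mutants and a line at the mean of each stage. Cdh11, Wnt5a, Mtus2, Ly96 and Rhag are higher and the other 6 lower in every older library, and Nppa is listed at 0 TPM in control 3 and mutant 3.

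The lower calls were led by Park2, which encodes the ubiquitin ligase parkin (chromosome 17, 10840384 to 12063361). It had 79.8 and 68.9 TPM at 19 somites and 7.9, 2.12, 3.49 and 1.12 TPM at 21 to 24 somites, with a log2 ratio of -4.22 ± 0.51 (SE, limma adjusted p = 0.008). Among coding genes its fall was the largest, and the values of the younger foreguts were close to each other. The other 11 coding genes with the largest falls were subunits of the ribosome and of mitochondrial enzymes, histones, products of heart muscle and Crip1, a small LIM-domain protein. Crip1 had 14.01 and 35.7 TPM at 19 somites and 3.4, 2.38, 3.83 and 1.34 TPM at 21 to 24 somites, with a log2 ratio of -2.71 ± 0.36 (SE, limma adjusted p = 0.0096).

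Ribosomal protein genes, which encode the protein part of the 2 ribosomal subunits, were lower in the older foreguts as a group. Of 77 tested, 44 were lower and 0 higher, against 7.41% and 2.00% of all genes, and in 70 the older group lay below without overlap, against 23.1%. Their median log2 ratio was -1.11 beside -0.02 over all genes, -1.02 within controls and -1.18 within mutants. Rplp1, an acidic protein of the ribosomal stalk (chromosome 9, 61913284 to 61914542), had 620.1 and 673 TPM at 19 somites and 125, 70.2, 94.2 and 58.1 TPM at 21 to 24 somites, with a log2 ratio of -2.94 ± 0.29 (SE, limma adjusted p = 0.0057). Rplp2, its stalk partner, had 1010 and 1532 TPM at 19 somites and 292, 277, 317 and 196 TPM at 21 to 24 somites, with a log2 ratio of -2.22 ± 0.20 (SE, limma adjusted p = 0.0041). Rps14, a protein of the small subunit, had 464 and 786 TPM at 19 somites and 114, 89.7, 102 and 85.2 TPM at 21 to 24 somites, and Rps28, of the same subunit, had 2193 and 2319 TPM at 19 somites and 624, 619, 550.3 and 357 TPM at 21 to 24 somites. All 4 fell in every older library. Rpl10a, a protein of the large subunit, was not called, with 1980 and 2641 TPM at 19 somites and 2585, 2572, 3306 and 3496 TPM at 21 to 24 somites. Its log2 fold change was 0.37 (limma adjusted p = 0.31). Ribosomal protein genes have many near-identical processed copies in the genome, and it is not known here how the authors' processing shared reads among them. The summed level of all 78 listed genes was 90987 and 118995 TPM at 19 somites and 54897, 55687, 56234 and 44307 TPM at 21 to 24 somites. Without control 1, 1 of the 77 was called lower, and without mutant 1, 0, with medians of -1.18 and -1.02.

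Nuclear genes of oxidative phosphorylation, which encode most subunits of the respiratory chain and of the ATP synthase of mitochondria, showed the same order. Of 74 tested, 41 were lower and 0 higher, against 7.41% and 2.00% of all genes. In 58 the older group lay below and in 3 above without overlap, against 23.1% and 20.4%, and the median log2 ratio was -1.10. Uqcr11, a small subunit of complex III (chromosome 10, 80402997 to 80406830), had 170.5 and 225 TPM at 19 somites and 30.8, 29.1, 26.9 and 15.8 TPM at 21 to 24 somites, with a log2 ratio of -2.93 ± 0.25 (SE, limma adjusted p = 0.0038). Uqcr10, of the same complex, had 175 and 220.2 TPM at 19 somites and 67.3, 55.6, 60.5 and 35.8 TPM at 21 to 24 somites. Atp5g2, which encodes a copy of the membrane ring subunit of the ATP synthase (chromosome 15, 102662864 to 102672352), had 192 and 253 TPM at 19 somites and 38.9, 33.6, 30.4 and 32.9 TPM at 21 to 24 somites, with a log2 ratio of -2.67 ± 0.18 (SE, limma adjusted p = 0.0018). The older foreguts lay close together at 30.4 to 38.9 TPM. The summed level of all 76 listed genes was 13006 and 15032 TPM at 19 somites and 9300, 9354, 8750 and 8122 TPM at 21 to 24 somites. Mitochondrially encoded genes were not among the features tested.

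Subunits of the ATP synthase did not move together. The 17 listed genes with an Atp5 name were picked by name, whether or not each encodes a subunit. Among them, 6 of the 11 with transcripts shorter than 1000 bases were lower, with a median log2 ratio of -1.10 over the 11. Of the 6 with longer transcripts 1 was lower, with a median of -0.35. Over all genes 7.41% were lower. Atp5b, the catalytic beta subunit of the same enzyme (chromosome 10, 128083273 to 128090391), had 1311 and 1599 TPM at 19 somites and 2715, 2673, 2966 and 2889 TPM at 21 to 24 somites. It was higher in all 4 older libraries, with a log2 ratio of 0.96 ± 0.19 (SE, limma adjusted p = 0.02), just under the limit of 1. The next genes were chosen after their values were seen. Atp5a1, the alpha subunit that pairs with Atp5b, had 360.1 and 443 TPM at 19 somites and 307, 356, 266 and 207 TPM at 21 to 24 somites and was not called (limma adjusted p = 0.12). Atp5k, a small membrane subunit, had 242 and 271 TPM at 19 somites and 105, 96.2, 68.4 and 41.9 TPM at 21 to 24 somites, with a log2 ratio of -1.79 ± 0.34 (SE, limma adjusted p = 0.019). Atp5g1, another copy of the ring subunit, was lower although its median transcript length is listed as 2675 bases, with 207 and 326 TPM at 19 somites and 83.3, 57.99, 118 and 94.5 TPM at 21 to 24 somites. Atp5e, the small epsilon subunit, which the naming rule picked, had 119.7 and 152 TPM at 19 somites and 47.7, 32.1, 30.5 and 25.4 TPM at 21 to 24 somites, with a log2 ratio of -2.0 ± 0.26 (SE, limma adjusted p = 0.0091).

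**Figure D3:**
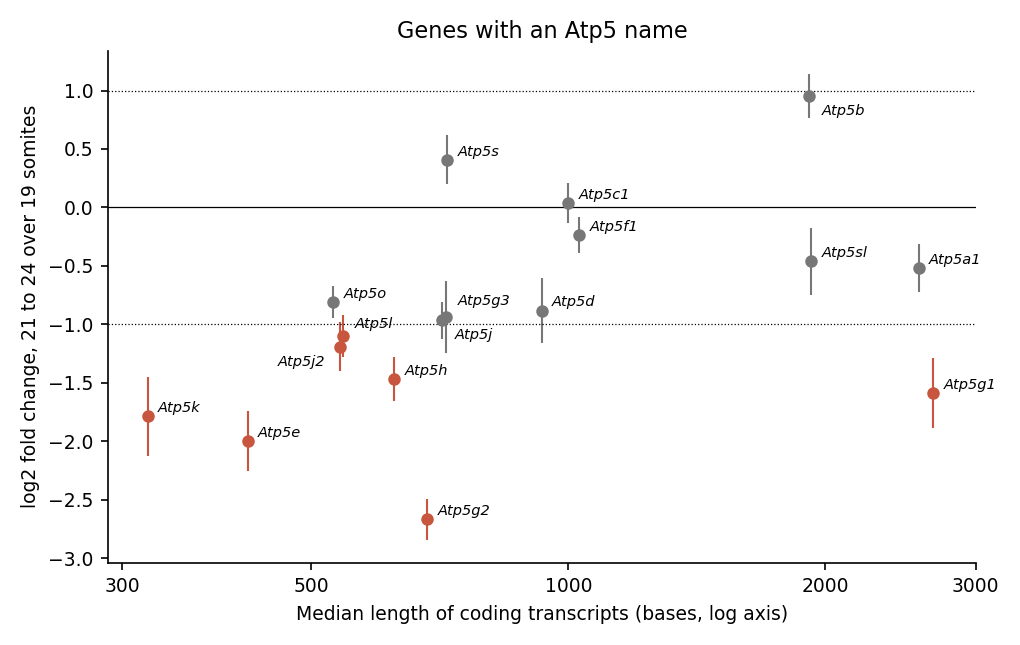
Log2 fold change (21 to 24 over 19 somites, bars are SE) of the 17 listed genes with an Atp5 name against the median length of their coding transcripts in bases on a log axis, with called genes in red and the fold limits dotted. Atp5g2 and Atp5e are lowest, Atp5b is at 0.96, and Atp5g1 is the only called gene beyond 1000 bases.

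Histone genes of the clusters, which supply the core and linker histones of newly made DNA, were also lower. Of 59 tested, 31 were lower and 0 higher, against 7.41% and 2.00% of all genes, with a median log2 ratio of -1.22. With somite number as a linear term, or with the 21-somite foreguts alone, 13 were lower. Hist1h2ac, which encodes an H2A histone (chromosome 13, 23681467 to 23683948), had 15.2 and 40.1 TPM at 19 somites and 4.08, 4.28, 2.05 and 0.75 TPM at 21 to 24 somites, with a log2 ratio of -2.90 ± 0.47 (SE, limma adjusted p = 0.014). Hist1h2be, an H2B gene of the cluster, had 325 and 854 TPM at 19 somites and 126, 98.5, 275 and 7.61 TPM at 21 to 24 somites, and so varied widely among the older foreguts (limma adjusted p = 0.084). Hist1h3c had 16.6 and 33.2 TPM at 19 somites and 3.59, 3.67, 8.79 and 0 TPM at 21 to 24 somites, and Hist1h2ai had 71.5 and 146 TPM at 19 somites and 16.8, 14.4, 22.7 and 20.9 TPM at 21 to 24 somites. Hist1h2bb was not called, with 145 and 187 TPM at 19 somites and 121, 73.05, 115 and 109 TPM at 21 to 24 somites. Most replication-dependent histone mRNAs carry no poly(A) tail, and these libraries were made from polyadenylated RNA, so the values cover the share that was captured. The genes are also near-identical copies of each other, and Hist1h2be shares 496 exonic bases with Hist1h1e.

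The transcripts that fell were shorter and richer in G and C than those that rose. Coding genes called lower had a median transcript length of 981 bases and a GC content of 56.4%, those called higher 3286 bases and 46.7%, and those not called 2339 bases and 50.4%. Of 457 coding genes with transcripts under 600 bases, 31.9% were lower and 0.656% higher, with a median log2 ratio of -0.65. Of 2310 with at least 4000 bases, 0.563% were lower and 3.33% higher, with a median of 0.28. By GC content, the median ran from 0.26 for 2343 genes below 45% to -0.62 for 597 genes at 60% or more. Within the class under 600 bases, the 26 ribosomal protein genes had a median of -1.44, the 30 genes of oxidative phosphorylation -1.26 and the 33 histone genes -1.26, beside -0.41 over the 368 others.

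With the trends on transcript length and GC removed from each library, 298 genes were higher and 333 lower, 2.28% and 2.55% of the 13044 with an annotated transcript, and 395 of the 1190 earlier calls among these remained. In that fit 19 of 77 ribosomal protein genes, 15 of 74 genes of oxidative phosphorylation and 13 of 59 histone genes were lower, and 1 of each list was higher. Their medians were -0.75, -0.59 and -0.51. Rplp1 had a log2 ratio of -2.11 in it (limma adjusted p = 0.0099), Uqcr11 -1.99 (limma adjusted p = 0.0095), and Cdh11, whose transcripts have a median of 5647 bases, 1.24 (limma adjusted p = 0.016). Wnt5a stood at 1.00, just under the limit (limma adjusted p = 0.027). Rpl10a passed the test upward in this fit, at 1.03 (limma adjusted p = 0.041), as did Atp5b, at 1.05 (limma adjusted p = 0.019). Hba-x, Gli2 and Mest, described below, also passed upward, at 2.48, 1.29 and 1.06 (limma adjusted p = 0.064, 0.011 and 0.019). Among the shorter lists described below, the calls of Hlx, Hoxa4, Hoxb7, Apoa1, Ier2, Slc16a3, Ddit4 and Nnat were also lost in this fit. Whether the trends on length and GC came with stage or with the handling of the libraries was not tested.

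**Figure D4:**
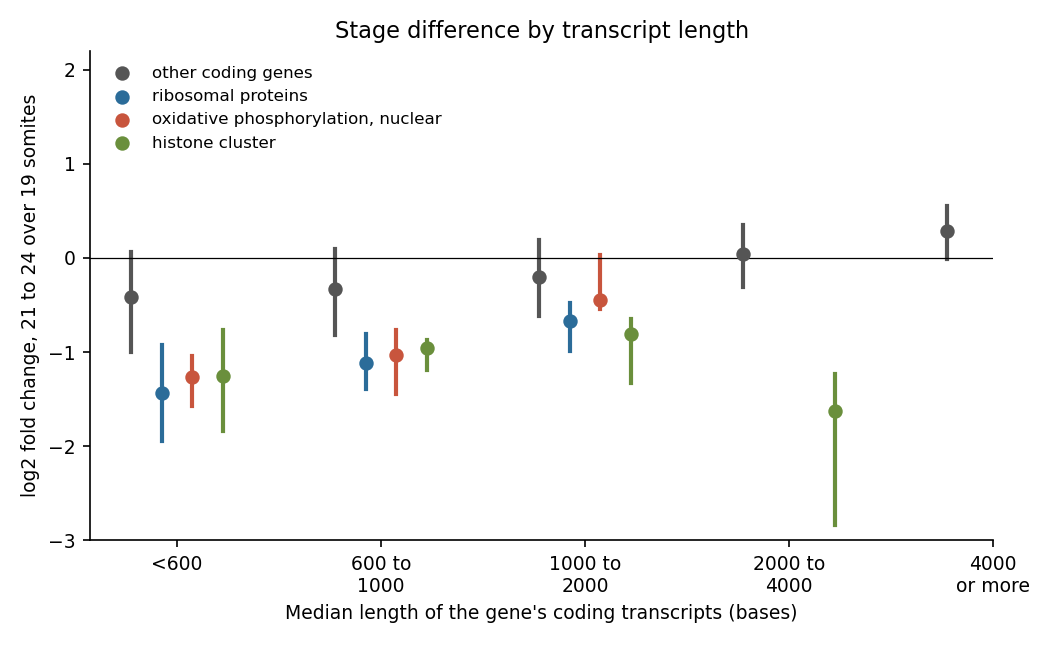
Log2 fold change (21 to 24 over 19 somites) in classes of median coding transcript length in bases, as the median (point) and the middle 50% of genes (bar), for ribosomal protein, oxidative phosphorylation and histone genes and for all other coding genes, in classes with at least 5 genes. The other genes run from -0.41 below 600 bases to 0.29 at 4000 or more, and the 3 lists lie below them in each class shown.

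Markers of heart muscle were lower in the older foreguts. Of 12 tested, 8 were lower and 0 higher, with a median log2 ratio of -1.80, against 7.41% lower over all genes. With the exon length trend removed 8 were lower, with a median of -1.64. With the transcript length and GC trends removed or with no filter on low values 4 were lower. With somite number as a linear term 0 were, with a median of -1.15. Nppa, the atrial natriuretic peptide of embryonic heart muscle (chromosome 4, 148000722 to 148002079), had 10.7 and 42.2 TPM at 19 somites and 0, 0, 2.92 and 0.15 TPM at 21 to 24 somites, with a log2 ratio of -3.95 ± 0.54 (SE, limma adjusted p = 0.01). Of its exonic bases, 532 of 865 are shared with the antisense RNA Gm13054, and the libraries do not mark strand. Myh6, the alpha heavy chain of cardiac myosin (chromosome 14, 54941921 to 54966927), had 85.3 and 123 TPM at 19 somites and 7.5, 12.6, 46.9 and 8.85 TPM at 21 to 24 somites, with a log2 ratio of -2.76 ± 0.47 (SE, limma adjusted p = 0.016). Myl4, an atrial light chain of myosin, had 35.02 and 137 TPM at 19 somites and 8.05, 3.14, 26.99 and 8.83 TPM at 21 to 24 somites, and Tnnc1, the calcium-binding troponin of heart muscle, had 21.02 and 55.1 TPM at 19 somites and 1.57, 2.82, 18.8 and 3.35 TPM at 21 to 24 somites. Actc1, the cardiac actin, was not called, with 357 and 652 TPM at 19 somites and 190.0, 196, 681 and 289 TPM at 21 to 24 somites.

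Mutant 2 stood out among the older foreguts in this list. The summed TPM of the 13 listed markers, 1 of them too low to be tested, was 880.2 and 1869 TPM at 19 somites and 309, 335, 1285 and 456 TPM at 21 to 24 somites, so that mutant 2, with 22 somites, lay above control 1. Without mutant 2, 9 of the 12 were lower, with a median of -2.12, and against the 21-somite foreguts alone 7 were, with a median of -2.31. Without control 1 and without mutant 1, 0 were. How much heart tissue was left on these foreguts is not stated, and in bulk tissue fewer cells of a type and less RNA per cell cannot be told apart. Here and for the lists below, the part of the amount of adjoining tissue in the stage difference was not tested.

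The heart and histone genes with the largest falls are 2 sets whose regulation is well known, and the sequences around their starts are shown for that reason, beside that of Uqcr11 as a gene of the respiratory chain. Each runs 5′ to 3′ from 250 bases before to 50 bases after the start in RefSeq (GRCm38.p6), with TATAAA, the letters of the TATA box core, in capitals. These letters begin 32 bases before the annotated start in Hist1h2ac and 9 bases before it in Nppa, in Myh6 they lie just after it, and Uqcr11 has none.
Nppa (chr4:148000472-148000771, plus strand): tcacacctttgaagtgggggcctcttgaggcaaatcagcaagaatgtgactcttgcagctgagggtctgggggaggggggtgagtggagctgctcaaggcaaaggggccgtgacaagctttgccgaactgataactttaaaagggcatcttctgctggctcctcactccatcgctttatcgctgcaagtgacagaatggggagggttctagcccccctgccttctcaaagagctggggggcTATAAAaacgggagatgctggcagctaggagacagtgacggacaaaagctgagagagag
Myh6 (chr14:54966558-54966857, minus strand): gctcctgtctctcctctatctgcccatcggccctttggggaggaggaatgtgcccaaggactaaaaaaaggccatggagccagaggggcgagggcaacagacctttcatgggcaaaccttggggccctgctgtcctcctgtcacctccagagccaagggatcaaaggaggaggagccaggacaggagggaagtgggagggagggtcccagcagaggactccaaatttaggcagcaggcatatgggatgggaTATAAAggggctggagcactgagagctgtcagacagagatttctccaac
Hist1h2ac (chr13:23683910-23684209, minus strand): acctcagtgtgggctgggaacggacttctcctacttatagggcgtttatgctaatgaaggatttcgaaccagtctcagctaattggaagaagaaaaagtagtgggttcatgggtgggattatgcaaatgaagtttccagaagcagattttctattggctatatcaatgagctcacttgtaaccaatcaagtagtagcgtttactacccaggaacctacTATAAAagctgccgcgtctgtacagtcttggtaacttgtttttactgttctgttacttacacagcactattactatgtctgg
Uqcr11 (chr10:80406772-80407071, minus strand): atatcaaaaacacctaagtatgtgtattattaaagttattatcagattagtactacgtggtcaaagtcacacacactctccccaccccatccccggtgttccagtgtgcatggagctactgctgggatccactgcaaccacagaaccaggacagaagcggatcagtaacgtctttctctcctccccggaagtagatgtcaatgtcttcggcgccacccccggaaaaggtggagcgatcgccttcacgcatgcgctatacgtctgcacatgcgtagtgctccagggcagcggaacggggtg
TATAAA or its reverse complement TTTATA was present in 18 of 30 promoters of histone genes called lower (60%), 2 of 8 of heart markers called lower (25%), 5 of 37 of oxidative phosphorylation genes (13.5%) and 3 of 30 of ribosomal protein genes (10%). Among all tested members of these lists, called or not, it was present in 32 of 54 histone promoters (59.3%) and 3 of 12 heart marker promoters (25%). For oxidative phosphorylation it was 5 of 63 (7.94%) and for ribosomal proteins 5 of 56 (8.93%). The shares of the histone and heart genes called lower were thus those of their whole lists. The letters were present in 719 of 10327 promoters of all tested genes (6.96%) and in 3827 of 27025 of all 300-base windows (14.2%). Over all calls the share was 9.71% of 793 promoters of genes that were lower and 9.03% of 155 of genes that were higher. The match is a description of these letters in this window alone.

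Primitive red cell genes were highest in 2 of the older foreguts. Of 10 tested, 1 was higher and 0 lower, beside 2.00% and 7.41% of all genes, with a median log2 ratio of 0.91. The count depended on the setting. It was 0 with somite number as a linear term or against the 21-somite foreguts alone. Against the 22 and 24-somite foreguts alone 5 were higher, and with array weights 4 were. Rescaled without accession-named features 3 were higher, as with the exon length trend removed. The summed TPM was 3561 and 8941 TPM at 19 somites and 28579, 7607, 32562 and 6676 TPM at 21 to 24 somites, so control 3 and mutant 2 were far above the others and mutant 1 lay above mutant 3 and control 2. Hba-x, the embryonic zeta globin, had 1922 and 4863 TPM at 19 somites and 21436, 5467, 25710 and 4967 TPM at 21 to 24 somites and was not called (limma adjusted p = 0.13). Hbb-y, an embryonic beta globin, had 877 and 2390 TPM at 19 somites and 3285, 865, 3320 and 781 TPM at 21 to 24 somites, with overlapping groups. Rhag and Fech, the enzyme that completes heme, were also highest in control 3 and mutant 2. Unlike in the summed list, mutant 1 lay below mutant 3 and control 2 in both genes. Fech, chosen after its values were seen, had 13.1 and 15.7 TPM at 19 somites and 54.6, 29.9, 52.98 and 29.3 TPM at 21 to 24 somites, with a log2 ratio of 1.41 ± 0.31 (SE, limma adjusted p = 0.026). Without control 3 or without mutant 2, 0 of the 10 were called.

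Few cell cycle genes were called. Of 14 DNA replication genes 1 was lower, a share near the 7.41% of all genes, with a median log2 ratio of -0.28, and in 7 the older foreguts lay below the younger without overlap, beside 23.1% of all genes. Ung, which removes uracil from DNA, had 114 and 141 TPM at 19 somites and 47.2, 41.7, 31.5 and 29.6 TPM at 21 to 24 somites, with a log2 ratio of -1.76 ± 0.23 (SE, limma adjusted p = 0.0091). Pcna, the sliding clamp of DNA polymerase, had 685 and 700.3 TPM at 19 somites and 592, 742, 588 and 578 TPM at 21 to 24 somites, with overlapping groups. Of 13 mitosis genes 0 were called in either direction, with a median of 0.39, and in 7 the older group was higher without overlap, beside 20.4% of all genes. Mki67, the chromosome-coating antigen of cycling cells, had 142 and 169.5 TPM at 19 somites and 284, 257, 305 and 293 TPM at 21 to 24 somites, with a log2 ratio of 0.87, under the limit (limma adjusted p = 0.016). Top2a, the topoisomerase of dividing cells, had 286 and 301 TPM at 19 somites and 424, 456, 389 and 385 TPM at 21 to 24 somites. Rescaled without accession-named features, 2 of the 13 were called higher, and with the length and GC trends removed the median was 0.03.

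Extracellular matrix genes had a median above 0. Of 19 tested, 1 was higher and 0 lower, beside 2.00% and 7.41% of all genes, with a median log2 ratio of 0.50. In 6 (beside 20.4% of all genes) the older foreguts were higher without overlap. With the exon length trend removed 0 of these matrix genes were called, with a median of 0.36. Rescaled without accession-named features, 3 were higher. Bgn, the proteoglycan biglycan, had 8.38 and 37.4 TPM at 19 somites and 16.7, 43.8, 91.7 and 28.1 TPM at 21 to 24 somites, and its log2 ratio of 1.01 ± 0.33 (SE, limma adjusted p = 0.079) came with overlapping groups because mutant 1 lay above control 3 and control 2. Vcan, the proteoglycan versican of loose mesenchyme, had 123 and 152 TPM at 19 somites and 287, 183, 343 and 284 TPM at 21 to 24 somites, with a log2 ratio of 0.96, under the limit. Fn1, fibronectin, had 153 and 193 TPM at 19 somites and 251, 282, 366 and 221 TPM at 21 to 24 somites. Among 19 glycolysis genes 1 was lower and 0 higher, with a median of -0.55, and in 9 the older group was lower without overlap, beside 7.41% lower and 23.1% without overlap over all genes. The called gene was Slc16a3, a lactate exporter, with 18.8 and 24.8 TPM at 19 somites and 10.4, 11.7, 13.4 and 5.83 TPM at 21 to 24 somites. Of 7 genes of the hypoxia response 1 was lower, Ddit4, an inhibitor of growth signaling, with 11.4 and 16.04 TPM at 19 somites and 4.82, 5.75, 3.87 and 4.61 TPM at 21 to 24 somites. Bnip3, a mitochondrial target of the same response, was not called, with 74.5 and 73.9 TPM at 19 somites and 50.3, 55.4, 50.3 and 34.4 TPM at 21 to 24 somites.

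**Figure D5:**
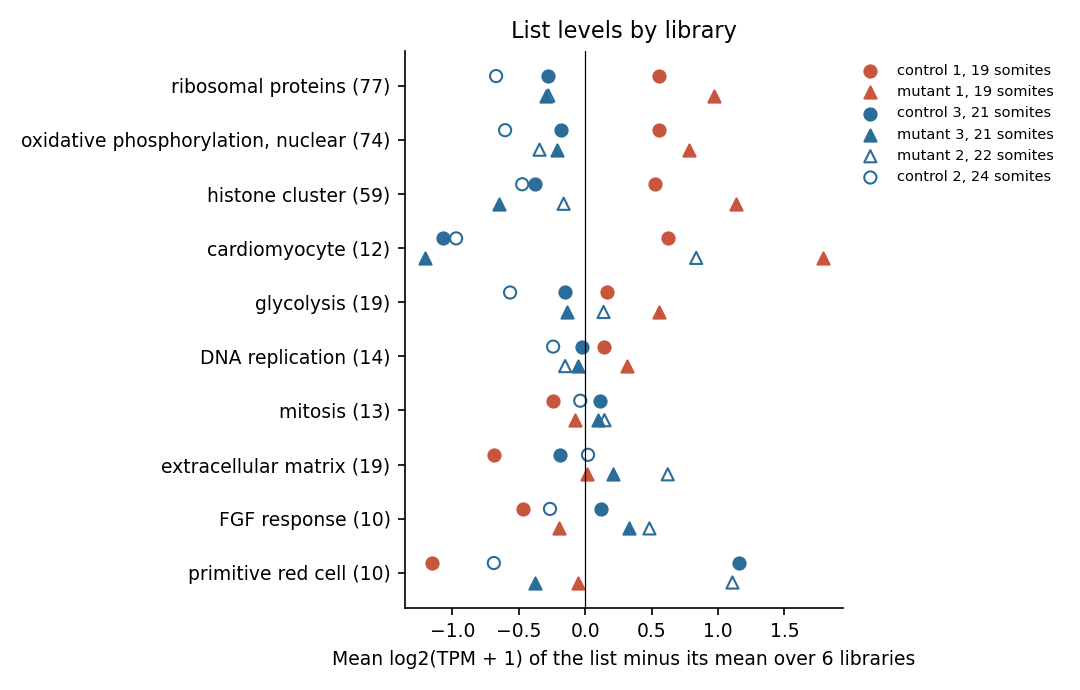
Mean log2(TPM + 1) over the tested genes of 10 lists (number of genes in parentheses) in each library, minus the mean over the 6 libraries, with red for 19 somites, filled blue for 21, open blue for 22 and 24, circles for controls and triangles for mutants. Both 19-somite libraries are above the other 4 for ribosomal protein, oxidative phosphorylation and histone genes, mutant 2 lies beside them for heart markers, and control 3 and mutant 2 are highest for red cell genes.

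Signaling read-outs were called in few members. In the Wnt response, 2 of 9 were higher and 0 lower, Dkk1 and Znrf3, which both restrain the pathway. Znrf3 had 26.4 and 22.6 TPM at 19 somites and 56.1, 46.7, 41.1 and 57.8 TPM at 21 to 24 somites, with a log2 ratio of 1.0 ± 0.14 (SE, limma adjusted p = 0.011), at the fold limit. Dkk1 had 1.18 and 0.54 TPM at 19 somites and 2.81, 2.48, 6.95 and 2.13 TPM at 21 to 24 somites (limma adjusted p = 0.094). In the Notch pathway, 2 of 10 were higher, the target Heyl, with 2.24 and 4.88 TPM at 19 somites and 7.34, 9.02, 11.7 and 10.8 TPM at 21 to 24 somites, and the ligand Jag1, with 9.91 and 5.62 TPM at 19 somites and 21.8, 9.57, 16.8 and 18.7 TPM at 21 to 24 somites. The groups overlapped for Jag1, as mutant 3 lay below control 1. In the FGF response, 1 of 10 was higher, the feedback inhibitor Spry4, with 2.49 and 1.53 TPM at 19 somites and 5.31, 6.26, 7.99 and 2.67 TPM at 21 to 24 somites, and Spred1, a related inhibitor, was not called, with 27.4 and 32.5 TPM at 19 somites and 43.9, 46.2, 54.3 and 61.5 TPM at 21 to 24 somites. The medians of the 3 lists were 0.44, 0.41 and 0.56, and 2.00% of all genes were higher. With the length and GC trends removed, Heyl kept its call and the other 4 lost theirs, Znrf3 at 0.79 and Jag1 at 0.62, and Dkk1 and Spry4 with a limma adjusted p of 0.15 and 0.15. With a pseudocount of 5, 0 of the 5 were called.

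In the BMP response 2 of 9 were lower, beside 7.41% of all genes. These were the direct targets Id1 and Id3, which encode inhibitors of helix-loop-helix factors. Id3 had 227 and 209.7 TPM at 19 somites and 94.9, 107, 86.2 and 67.4 TPM at 21 to 24 somites, with a log2 ratio of -1.31 ± 0.19 (SE, limma adjusted p = 0.012), and Id1 had 37.1 and 47.4 TPM at 19 somites and 22.6, 22.7, 18.9 and 12.2 TPM at 21 to 24 somites, with a log2 ratio of -1.13 ± 0.24 (SE, limma adjusted p = 0.026). Id2, of the same family, had 110.3 and 84.7 TPM at 19 somites and 49.95, 67.9, 59.9 and 55.5 TPM at 21 to 24 somites and fell short of the fold limit. The ligand gene Bmp4 had 109 and 57.4 TPM at 19 somites and 158, 61.97, 102 and 171 TPM at 21 to 24 somites, with overlapping groups. In the retinoic acid pathway 2 of 11 were lower, beside the same 7.41%. Among these, Crabp2, which brings retinoic acid to its nuclear receptor, had 118 and 308 TPM at 19 somites and 90.7, 58.8, 101 and 30.6 TPM at 21 to 24 somites, highest in mutant 1 (limma adjusted p = 0.05). With the length and GC trends removed, Id1 and Id3 fell short of the fold limit, at -0.62 and -0.82.

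The Hedgehog response, the read-out of the mutated factors, was not called by stage in any of 7 genes, with a median of -0.02. Ptch1, the receptor and a target of the pathway, had 507 and 210.1 TPM at 19 somites and 839.8, 285, 371 and 726 TPM at 21 to 24 somites, with a log2 ratio of 0.63 (limma adjusted p = 0.043). Foxf1, a forkhead factor of splanchnic mesoderm, had 118 and 23.7 TPM at 19 somites and 73.05, 21.6, 4.25 and 72.7 TPM at 21 to 24 somites. In both, control values lay above mutant values at either stage. Gli2 had 16.9 and 18 TPM at 19 somites and 25.6, 27.5, 36.96 and 20.9 TPM at 21 to 24 somites, with a log2 ratio of 0.61 (limma adjusted p = 0.072), and Gli3 had 79.2 and 53.7 TPM at 19 somites and 109, 73.8, 97.3 and 129 TPM at 21 to 24 somites. Neither level was used to check the genotypes, as no source read here names the exons that the mutant alleles lack.

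Of 11 foregut endoderm genes 2 were lower and 1 higher, against 7.41% and 2.00% of all genes. Krt8 and Krt18, the keratin pair of simple epithelia, fell. Krt8 had 98.5 and 72.9 TPM at 19 somites and 31.1, 35.1, 22.1 and 28.2 TPM at 21 to 24 somites, with a log2 ratio of -1.53 ± 0.21 (SE, limma adjusted p = 0.01), and Krt18 had 136 and 109.5 TPM at 19 somites and 57.6, 74.7, 46.7 and 57.7 TPM at 21 to 24 somites, with a log2 ratio of -1.05 ± 0.21 (SE, limma adjusted p = 0.021). Sox17, an endoderm factor that also marks endothelium, had 2.06 and 1.91 TPM at 19 somites and 6.01, 4.46, 5.36 and 6.6 TPM at 21 to 24 somites, with a log2 ratio of 1.14 ± 0.24 (SE, limma adjusted p = 0.023). Cldn6, a claudin of embryonic epithelia, had 471 and 398 TPM at 19 somites and 411, 598, 500.1 and 725 TPM at 21 to 24 somites and was not called. With the length and GC trends removed, Krt18 stood at -0.58 and lost its call (limma adjusted p = 0.15), and Krt8 and Sox17 kept theirs. Of 15 hepatoblast genes 1 was lower and 0 higher, the lower share being near the 7.41% of all genes. The median log2 ratio of this list was 0.50, above 0, and ran from -0.41 to 0.76 under the alternatives. The lower gene was the apolipoprotein gene Apoa1, with 7.67 and 4.59 TPM at 19 somites and 0.46, 3.19, 0.85 and 1.32 TPM at 21 to 24 somites. Of 10 respiratory and 7 pancreatic and duodenal genes 0 were called, as among the 6 of the pharyngeal endoderm, where Pax9 had 0.95 and 9.22 TPM at 19 somites and 13.3, 16.9, 27.8 and 2.37 TPM at 21 to 24 somites, and the limma adjusted p of 0.101 just missed the limit. Foxp1, a forkhead factor of lung endoderm, had 246 and 164 TPM at 19 somites and 321, 316, 259 and 425 TPM at 21 to 24 somites, and Eya1, a pharyngeal cofactor, had 10.4 and 26.99 TPM at 19 somites and 28.8, 50.5, 55.4 and 13.1 TPM at 21 to 24 somites.

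Of 15 genes of the gut tube splanchnic mesoderm 1 was higher, Wnt5a, and 1 lower, beside 2.00% and 7.41% of all genes. The share that was lower was thus near that of all genes. The lower gene was the homeobox factor Hlx, with 13.3 and 7.11 TPM at 19 somites and 2.18, 5.2, 0.25 and 3.78 TPM at 21 to 24 somites (limma adjusted p = 0.087). Sfrp1, a secreted Wnt antagonist, had 186 and 167 TPM at 19 somites and 162, 324, 254 and 291 TPM at 21 to 24 somites, with overlapping groups. Of 12 genes of the septum transversum and mesothelium and 8 of the pharyngeal mesoderm 0 were called. Isl1, a factor of the latter, had 27.1 and 18.2 TPM at 19 somites and 37.7, 27.2, 28.7 and 30.4 TPM at 21 to 24 somites, and Prrx1, a mesenchymal homeobox factor, had 5.64 and 32.4 TPM at 19 somites and 19.1, 41, 47.8 and 12.6 TPM at 21 to 24 somites. Hox genes of groups 1 to 4 had a median of -0.56 over 11, with 1 lower, a share near the 7.41% of all genes. It was Hoxa4, at 23.97 and 14.4 TPM at 19 somites and 8.83, 11.4, 2.59 and 8.28 TPM at 21 to 24 somites. Hox genes of groups 5 to 8 had a median of -0.74 over 5, with 1 lower, Hoxb7, beside the same 7.41%. Its call rested on control 1, with 13.6 and 0.99 TPM at 19 somites and 0.35, 0.64, 0 and 0.67 TPM at 21 to 24 somites. None of groups 9 to 13 was tested, as their summed TPM did not exceed 0.44 in a library.

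Of the other cell types that the dissection could hold, endothelium had called genes, though the median log2 ratio of its list was 0.26. Over all genes 7.41% were lower. Among 11 endothelial genes 2 were lower, the junction proteins Cldn5, with 3.68 and 5.53 TPM at 19 somites and 1.37, 0.66, 1.26 and 0.15 TPM at 21 to 24 somites, and Esam, with 5.55 and 10.2 TPM at 19 somites and 2.22, 4.06, 4.08 and 1.47 TPM at 21 to 24 somites, whereas Cdh5, the cadherin of endothelium, had 28.3 and 52.5 TPM at 19 somites and 34.99, 58.01, 86.4 and 57.3 TPM at 21 to 24 somites and was not called. Both calls were lost with the length and GC trends removed, where Cldn5 stood at -0.96 and Esam at -0.52, and with a pseudocount of 5. Of 7 smooth muscle, 5 somite, 5 neural tube and 9 neural crest genes 0 were called, nor was any of the 4 epiblast genes, the 2 let-7 precursors or the single tested genes of surface ectoderm and yolk sac endoderm. The summed TPM of the 9 listed neural tube genes was 9.86 and 8.4 TPM at 19 somites and 4.83, 11.8, 50.3 and 7.89 TPM at 21 to 24 somites, with mutant 2 apart from the rest, and Zic1, a dorsal neural factor of that list, had 0.09 and 0.34 TPM at 19 somites and 0.17, 0.75, 15.5 and 0.06 TPM at 21 to 24 somites. Acta2, the smooth muscle actin, had 49.8 and 96.6 TPM at 19 somites and 40.6, 33.97, 122 and 38.8 TPM at 21 to 24 somites, and here too mutant 2 was highest among the older. Of 10 immediate early and stress genes, which respond to tissue handling, 1 was lower, a share near the 7.41% of all genes. It was Ier2, with 15 and 14.6 TPM at 19 somites and 6.24, 5.34, 6.72 and 3.53 TPM at 21 to 24 somites. The summed TPM of that list was 78.6 and 92.6 TPM at 19 somites and 70.6, 78.5, 107 and 74.2 TPM at 21 to 24 somites, overlapping between stages.

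Among 18 imprinted genes 3 were lower and 0 higher, beside 7.41% and 2.00% of all genes, with a median of -0.05. Meg3, a long noncoding RNA expressed from the maternal copy (chromosome 12, 109541001 to 109571726), had 143 and 183 TPM at 19 somites and 44.2, 64.8, 51.3 and 31.7 TPM at 21 to 24 somites, with a log2 ratio of -1.77 ± 0.19 (SE, limma adjusted p = 0.0066). Mirg, the host RNA of a microRNA cluster in the same imprinted domain, had 10.1 and 14.1 TPM at 19 somites and 2.47, 4.17, 5.43 and 3.12 TPM at 21 to 24 somites, with a log2 ratio of -1.47 ± 0.23 (SE, limma adjusted p = 0.013). Nnat, a small membrane protein gene expressed from the paternal copy, had 264 and 302 TPM at 19 somites and 81.2, 85.4, 105 and 81.5 TPM at 21 to 24 somites, with a log2 ratio of -1.68 ± 0.14 (SE, limma adjusted p = 0.0038). Mest, an abundant member that was not called, had 1214 and 1662 TPM at 19 somites and 1757, 3070, 2974 and 2039 TPM at 21 to 24 somites, with a log2 ratio of 0.75. Regulators of developmental timing, the RNA-binding and chromatin factors of the Lin28 and let-7 circuit, had 0 of 9 called. Hmga2, a let-7 target of that list, had 828 and 551 TPM at 19 somites and 793, 1062, 716 and 1128 TPM at 21 to 24 somites, with overlapping groups.

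Small RNA genes moved in both directions. Of 155 tested, 6 were higher and 23 lower, beside 2.00% and 7.41% of all genes, with a median log2 ratio of -0.53 that was 0.00 within controls and -0.01 within mutants. The direction of the list turned with the exon length trend removed, when 20 were higher and 9 lower with a median of 0.48, and with the transcript length and GC trends removed, when 13 were higher and 9 lower with a median of 0.31. A short feature takes a large TPM from few reads, and a poly(A) library does not capture mature microRNAs, so these values can come from longer transcripts across the locus. Of 110 microRNA features, 5 were higher and 13 lower. Mir6236 had 1282 and 3542 TPM at 19 somites and 201, 111, 161 and 176 TPM at 21 to 24 somites, with a log2 ratio of -3.74 ± 0.40 (SE, limma adjusted p = 0.0066). Mir130c had 1.51 and 10.5 TPM at 19 somites and 19.4, 45.6, 78.2 and 113 TPM at 21 to 24 somites, with a log2 ratio of 3.33 ± 0.69 (SE, limma adjusted p = 0.024), and lies wholly within exons of Kdelc2 on the opposite strand. Mir3113 was listed at 0 at 19 somites and had 107, 34.5, 31.9 and 79.6 TPM at 21 to 24 somites, and lies wholly within exons of Huwe1 on the same strand. Mir5125 was listed at 0 in all 4 older foreguts and had 17.3 and 18.9 TPM in the younger. Mir1b was listed at 0 in both younger foreguts and had 5.87, 2.64, 10.8 and 14.6 TPM in the older. It overlaps Mir1a-2 on the opposite strand by 72 bases.

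The mature sequences of 4 of these loci are given to identify them and show that they belong to different families. They are from RefSeq (GRCm38.p6), 5′ to 3′, with the seed (bases 2 to 8) in capitals.
mmu-miR-6236 (chr9:110281353-110281371, plus strand): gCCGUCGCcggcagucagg
mmu-miR-5125 (chr17:23823339-23823358, plus strand): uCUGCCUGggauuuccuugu
mmu-miR-130c (chr9:53400808-53400829, minus strand): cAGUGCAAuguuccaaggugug
mmu-miR-3113-3p (chrX:151859606-151859625, plus strand): uCCUGGCCcugguccugguc
Of the 18 called microRNA features, 15 matched RefSeq, with 18 mature forms and 17 seeds. The seed shared between features was that of the near-identical copies Mir680-1 and Mir680-2.

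Accession-named features, for which the deposited table gives no gene, held the largest contrasts. AK201904 had 98.8 and 108 TPM in the younger foreguts and AK213359 51.2 and 121 TPM, and both were listed at 0 in all 4 older ones. AK193034 had 52.3 and 24.3 TPM against 0 in the older. AK182655 had 79.7 and 30.9 TPM in the younger foreguts and 1.48 TPM in control 3 and was listed at 0 in the other 3. AK205936 had 130.4 and 73.96 TPM at 19 somites and 24.5, 6.37, 0 and 0 TPM at 21 to 24 somites. In the other direction, AK207024 was listed at 0 at 19 somites and had 9.36, 9.70, 16.7 and 28.7 TPM at 21 to 24 somites, and the pseudogene Speer7-ps1 was listed at 0 and had 8.84, 6.34, 6.13 and 12.5 TPM. A value of 0 in a table without counts can be a failed estimate, so no fold is given for these.

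The step from 19 to 21 somites can be taken without the female embryos. Over the 4 male libraries, 150 genes were higher and 453 lower at 21 somites, 4.13% of those tested in all. Between the 19-somite and the 22 and 24-somite libraries, 397 were higher and 1481 lower, 12.9%, a comparison that shares its 19-somite samples with the former. Ribosomal protein genes were lower in 30 of 77 in the former and 51 of 77 in the latter, with medians of -0.99 and -1.21. Between the 21-somite and the 22 and 24-somite foreguts, 2 genes were called, 0.0137%, with 827 at an unadjusted p under 0.05. These were Xist, higher in the female embryos, and the accession-named feature AK204572.

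The stage difference was also compared between genotypes. By the interaction of stage and genotype, 0 genes were called (0%) in limma, with 237 at an unadjusted p under 0.05, in a design that rests on 1 younger library of each genotype. With a pseudocount of 5, without a filter on low values, or with array weights, 7, 68 and 10 genes were called. The 6 features with the smallest interaction p, Mir381, Mir1901, Snord35a, Mir874, AK216043 and AK186966, had a limma adjusted p of 0.36. For the main lists, the medians within controls and within mutants were -1.04 and -1.19 for oxidative phosphorylation, -0.89 and -1.53 for histones and -1.40 and -2.08 for heart markers. The difference between them was not tested for the lists.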

How the data were processed

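Polyadenylated RNA from 6 foreguts was amplified with SMART-Seq v4 and made into Nextera XT libraries, which mark no strand. Reads were aligned to mm10 within the CSBB pipeline, whose annotation and quantifier were not given in the sources read for this work. The authors deposited TPM values for 22564 features, which keep no depth, so precision rests on the spread between embryos. All 6 sample columns were used. The study's count-based test could not be run on TPM. Values were taken to log2(TPM + 1), genes that averaged 1 TPM or more were kept, and stage was tested with genotype as a term in limma version 3.58.1 under R version 4.3.3 (two-sided moderated test, variance trend on mean level, Benjamini-Hochberg). Calls used the limits of the study's methods text, an adjusted p up to 0.1 and a log2 ratio beyond 1 in either direction, with 0.05, which the study also names, as an alternative. The fit was tested on simulated data. Sex was read from Xist.

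Lengths, GC contents and positions came from GENCODE vM21, matched by symbol for 18597 features and by an older symbol for 642. The length and GC check covers 89.3% of the tested genes. The members and lists were chosen with earlier results of these data known. Of 43 lists, 40 had tested genes, and those of myeloid cells, mitochondrially encoded genes and Hox groups 9 to 13 had none. Genes named were the 12 coding genes and 5 other features with the largest change in each direction, with no overlap between the stages, up to 4 called and 2 uncalled members of each list, and check genes. Alternatives were other pseudocounts, filters, scalings and stage codings, sex, length trends, weights, a replicate block and leaving out each library. Promoters were matched by symbol or synonym. Some named genes are not reported here.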

Additional observations from a re-analysis of the deposited data

Results flagged for a closer look

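In 10 of 143 values examined over the 4 older foreguts, 1 library lay far from the other 3, where chance flags about 1 in 20 independent values with a normal spread. Of these, 7 concerned mutant 2, the embryo with 22 somites. It was high in Nppa (2.92 TPM, others at most 0.15 TPM), in Acta2 (122 TPM, others at most 40.6 TPM), and in the mean log2(TPM + 1) of the heart markers (5.01), smooth muscle (4.49), neural tube (3.11) and Notch pathway genes (3.50), and low in Hox groups 5 to 8 (0.93). Control 2, with 24 somites, was low in the mean of the ribosomal protein genes (8.60, others at least 8.98). Mutant 3 was high in Pcna (742 TPM, others 578 to 592 TPM), and control 3 alone had a value above 0 for AK182655 (1.48 TPM). The values examined were not independent, as Nppa is a member of the heart list and Acta2 of the smooth muscle list. Nppa and AK182655 were at or near 0 TPM in the other older libraries, where a small value stands apart. The number of flags therefore cannot be set against that rate.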

How the results depend on the processing

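The stage counts (292 higher, 1083 lower) moved by over 1.5 times under these settings. A pseudocount of 5 gave 85 and 542. Quantile normalization gave 454 higher, rescaling without accession-named features 621 higher and somite number as a linear term 125 higher. Removing a trend on exon length left 495 lower, on transcript length 556 and on transcript length and GC 333. The 21-somite foreguts alone gave 150 and 453. Leaving out 1 library gave 1 to 383 higher and 10 to 1308 lower, the lowest without a 19-somite library, when 14 (without control 1) and 6 (without mutant 1) of the 1375 calls remained. With the replicate number as a random block, whose estimated correlation was -0.064, 311 were higher and 1109 lower. A fixed block would absorb the stage. No call changed direction except 1 after the transcript length trend was removed, with or without GC.

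The interaction count of 0 became 7 with a pseudocount of 5, 68 without a filter, 10 with array weights, 4 with the exon length trend removed and 3 with the transcript length trend removed. With a fixed replicate block it was 0, and it was 0 without any 1 of the 4 older libraries. The random block could not be fitted there. Of the genes named, 3 uncalled ones changed sign. Hbb-y (0.19) went to -0.22 with the linear somite term and to between -0.50 and 0.87 with 1 library left out (-0.13 without mutant 2), Pcna (-0.16) to 0.30 with quantile normalization, 0.031 when rescaled, 0.15 with the exon length trend removed and 0.028 with the transcript length trend removed, and Hist1h2bb (-0.67) to 0.19 and 0.097 with the exon length and the transcript length and GC trends removed. Of 2613 values of named genes under an alternative, 2203 kept their call and direction, 350 lost a call and 50 gained it. Of 957 list medians, 881 moved by less than the spread within stages. The transcript length fits, the fixed block and the comparison of 21 with 22 and 24 somites were chosen after seeing the data. Without depth, a low value cannot be told from a value of few reads, and 2 younger embryos set the precision of every stage value.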
